A study of Mus musculus with 2 samples.

Results

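Core genes of the circadian clock were followed in mouse cells given an agent labelled S180 or the solvent DMSO. The 10 members are Bhlhe40, Bhlhe41, Per1, Per2, Per3, Cry1, Cry2, Arntl, Nr1d1 and Dbp, taken as every probe whose gene name in the scanner files equals one of these symbols. They hold 21 of the 56602 probes and 10 of the 37072 gene names on the array. Each group was 1 sample of total RNA on 1 Agilent mouse expression array, which leaves every difference without replicates and without a test. The labels give the agent only. They do not say which mouse cells were used, what S180 is, its dose, the length of exposure or the time of collection.

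The circadian clock is a loop of transcription factors with a period of about a day. CLOCK and BMAL1, the product of Arntl, form a dimer that binds E-box sequences and switches on the Per and Cry genes, whose proteins return to the nucleus and inhibit the dimer. BHLHE40 and BHLHE41, also called DEC1 and DEC2, are repressors that bind the same E-boxes. In a further loop REV-ERB alpha, the product of Nr1d1, represses Arntl and ROR proteins activate it, and DBP, a PAR bZIP factor that binds D-box sequences, carries the rhythm to output genes. Besides light and feeding, glucocorticoids and cAMP signalling are known to induce Per1, and Bhlhe40, Bhlhe41 and Rora are known targets of the hypoxia-inducible factor HIF-1.

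The start regions of the members show where such sites lie. RefSeq promoters of build GRCm38.p6 were at hand for 8 of the 10 members, and for Bhlhe40 and Per2 none is printed. The 250 bases before each annotated start were searched on both strands for the E-box CACGTG and for the D-box in the forms TTATGTAA and TTACGTAA. The E-box letters were present for Bhlhe41, Cry1 and Per1, and D-box letters for Per3. These 4 regions are shown 5′ to 3′ on the gene's strand because they hold the letters that the members' own proteins are known to read, and capitals mark them.
Bhlhe41 (chr6:145865421-145865670, minus strand): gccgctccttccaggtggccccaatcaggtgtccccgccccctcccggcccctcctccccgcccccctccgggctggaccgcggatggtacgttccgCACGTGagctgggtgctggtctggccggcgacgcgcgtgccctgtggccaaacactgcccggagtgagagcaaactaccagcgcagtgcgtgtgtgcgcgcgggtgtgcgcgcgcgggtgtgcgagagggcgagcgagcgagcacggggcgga
Per1 (chr11:69098699-69098948, plus strand): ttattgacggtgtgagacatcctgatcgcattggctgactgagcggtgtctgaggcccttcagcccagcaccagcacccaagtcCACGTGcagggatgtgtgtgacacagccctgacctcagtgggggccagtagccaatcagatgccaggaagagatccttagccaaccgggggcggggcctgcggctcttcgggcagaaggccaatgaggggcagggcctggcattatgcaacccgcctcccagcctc
Cry1 (chr10:85185055-85185304, minus strand): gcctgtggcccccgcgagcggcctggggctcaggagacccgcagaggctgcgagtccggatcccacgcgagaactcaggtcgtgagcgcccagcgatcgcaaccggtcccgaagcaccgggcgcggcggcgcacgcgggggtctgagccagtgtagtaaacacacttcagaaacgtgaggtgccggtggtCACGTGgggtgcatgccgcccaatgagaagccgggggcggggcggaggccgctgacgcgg
Per3 (chr4:151044666-151044915, minus strand): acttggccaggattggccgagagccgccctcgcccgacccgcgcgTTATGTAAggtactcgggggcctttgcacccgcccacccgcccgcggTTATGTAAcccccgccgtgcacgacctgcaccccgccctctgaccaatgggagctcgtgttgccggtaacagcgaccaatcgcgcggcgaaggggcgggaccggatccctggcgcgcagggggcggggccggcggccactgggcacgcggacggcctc
The E-box begins 153 bases before the start in Bhlhe41, 166 in Per1 and 60 in Cry1, and the D-boxes of Per3 begin 205 and 158 bases before it. An E-box was found in 6.02% of all 32851 RefSeq windows of this length and a D-box in 0.931%. The shorter letters ACGTG, which lie inside every E-box and are also the core of HIF sites, were found for 6 of the 8 members and in 16.6% of all windows. Member counts are of genes with the letters in any window, 10 windows for 8 members, and the shares are of single windows. A match is a description of the letters, and a second annotated start of Per1 had neither an E-box nor a D-box.

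The share of the 59305 non-control spots well above background was 61.9% for S180 and 60.6% for DMSO, and none was saturated. Values are scaled log2 signals, the log2 of the processed signal minus the array's 75th percentile, and a difference is S180 minus DMSO. A probe was measured when the scanner software called it well above background on both arrays, and a gene was represented by its brightest probe. Of 20777 measured genes, 121 exceeded 2-fold upward in S180 and 35 downward. Upward calls made up 77.6% of these, against 26.4% without scaling and 15.8% with a scale set by 8 spike-in transcripts. The SD of a difference between single spots, from probes printed 10 times, was 0.035 (log2) for bright genes, 0.065 for those of middle signal and 0.26 for dim ones (groups of equal size), from 260, 6 and 11 probes. Variation between cultures, RNA preparations and labelling reactions is not part of it. Of the preset cell type markers, all 7 of melanocytes were measured, none 1.5-fold apart, while 4 of 5 fibroblast, 2 of 4 epithelial, 4 of 5 macrophage, 2 of 4 T cell, 1 of 4 endothelial, 3 of 4 neuron, 1 of 4 muscle, 2 of 4 adipocyte and 0 of 3 hepatocyte markers were. The fibroblast, epithelial and macrophage lists each held 1 marker at least 1.5-fold lower in S180, with lowest differences of -0.83, -0.89 and -0.84. The summed signals of these lists were 1387, 49.1 and 2073 in S180 and 2389, 89.5 and 2664 in DMSO before scaling, and the scaled sums in S180 were 0.706, 0.666 and 0.946 times those in DMSO. The melanocyte list had far higher sums, 800049 in S180 and 868102 in DMSO before scaling, and its scaled sum in S180 was 1.12 times that in DMSO. Thy1, Krt8, Krt18 and Adgre1 were not measured. The lists' part in the clock genes' values was not tested. In RNA of whole samples, fewer cells of a type and less RNA per cell cannot be told apart.

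Among the 10 members Bhlhe40 differed most and was 2.10-fold higher in S180. Per1 was 1.44-fold higher. Cry1 and Arntl were 1.29-fold and 1.25-fold higher, Cry1 by less than 2 spot SDs of dim genes. Bhlhe41, Per3, Cry2, Nr1d1 and Dbp differed by at most 1.11-fold on their brightest probes, and Per2 was not well above background on either array. In this comparison 1 of 9 measured members was at least 2-fold higher, where 0.582% of all measured genes were, and 0 were at least 2-fold lower, where 0.168% were. At 1.5-fold the counts were also 1 higher and 0 lower, against 3.08% and 1.71% of measured genes. The members' median difference was 0.16 (log2), beside 0.00 (0.00429) for all measured genes, and it was 0.091 over the other 8 members without Bhlhe40.

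**Figure D1:**
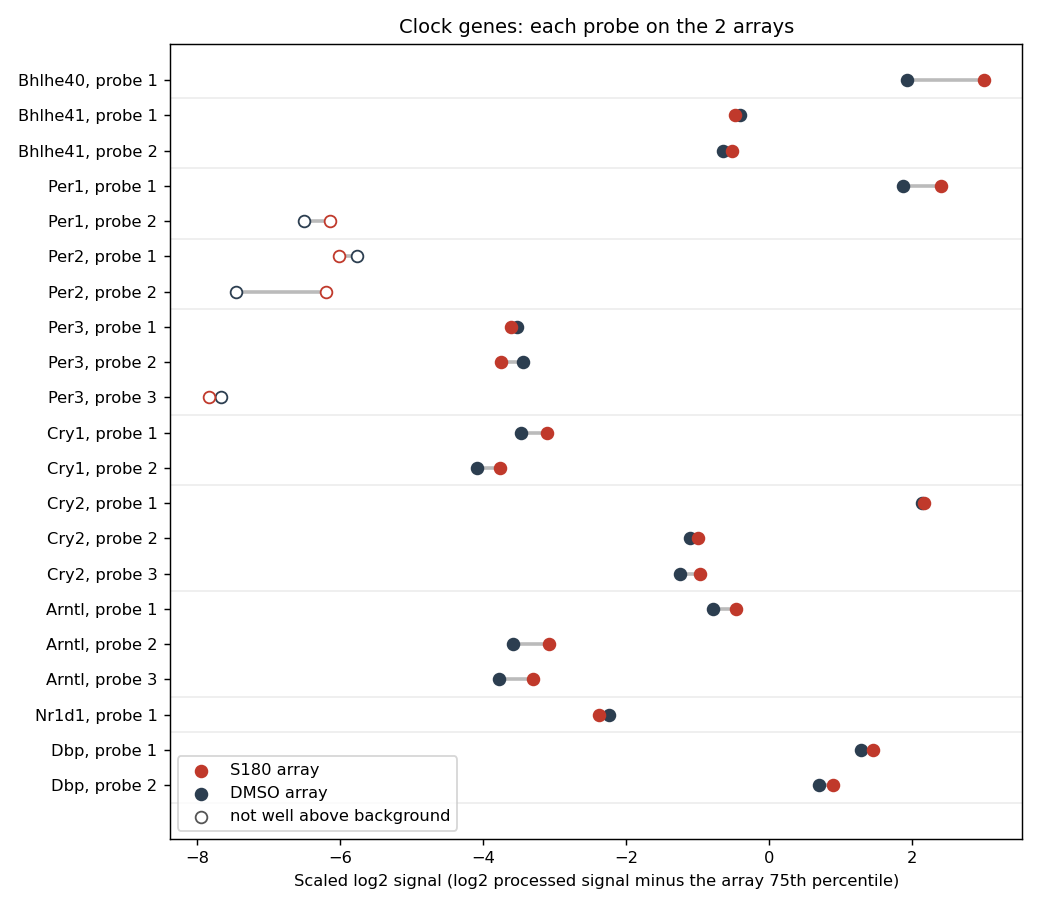
Scaled log2 signal of each of the 21 probes of the 10 clock genes, S180 in red and DMSO in dark blue, with open circles where the probe was not well above background. The widest gap among measured probes is that of Bhlhe40, from 1.94 in DMSO to 3.01 in S180, and both Per2 probes are open on both arrays.

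Of the pair of Bhlhe repressors, only Bhlhe40 differed by more than 2 spot SDs. The single Bhlhe40 probe had a processed signal of 4948 in S180 and 2864 in DMSO, or scaled values of 3.01 and 1.94. The difference of 1.07 (log2) was 30.9 times the spot SD of bright genes. Only 94 of the 20777 measured genes had a higher difference, and 29 of the 6926 bright genes. Probe positions are on build mm9, and this one is on chromosome 6 from 108616309 to 108616368. Without replicates or another probe, this value rests on 1 spot on each array. It kept to at least 2-fold in 10 of 12 settings, but not all of these could change it. With 1 measured probe of high signal, averaging probes or changing the signal filter could not alter it. The deposited table and quantile normalization gave the same 1.08 (log2). Bhlhe40 was 1.73-fold higher without scaling and 1.64-fold on the spike-in scale.

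Bhlhe41, the close paralogue of Bhlhe40, was represented by a pair of probes. The brighter, on chromosome 6 from 145806764 to 145806823, had signals of 445 in S180 and 567 in DMSO. The other, from 145812652 to 145812711, had 432 and 480. After scaling the differences were -0.07 and 0.13, in opposite directions, so that Bhlhe41 showed no direction that both probes shared. Bhlhe40 exceeded Bhlhe41 by 1.14 (log2) in its S180 difference on the brighter Bhlhe41 probe and by 0.94 on the other.

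Of the Period genes, whose proteins hold back the CLOCK and BMAL1 dimer, Per1 was higher in S180. Its brighter probe, on chromosome 11 from 68923364 to 68923423, gave signals of 3276 in S180 and 2758 in DMSO, or scaled values of 2.41 and 1.88. The difference of 0.53 was 15.3 times the spot SD, and 136 of 6926 bright genes (1.96%) had a higher one. The other Per1 probe, matched in the files to a cDNA clone, was not well above background, with 8.72 and 8.27. Per1 was positive in all 12 settings, of which the probe mean and the signal filters could not alter it, but only 0.17 on the spike-in scale.

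Per2, the other Period gene known to be needed for a stable rhythm, has no fold here. Its probes had signals of 9.49 in S180 and 13.7 in DMSO, and of 8.36 and 4.26, none well above background. Per3, regarded as the least essential Period gene, was dim. Its brighter measured probe, on chromosome 4 from 150385608 to 150385667, gave 50.7 in S180 and 64.8 in DMSO, a difference of -0.07. The second measured probe gave 45.7 and 69.1, a difference of -0.31. Both were under the 0.52 that makes 2 spot SDs for dim genes. The third Per3 probe was not well above background, with 2.69 and 3.67.

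Of the cryptochromes, partners of the PER proteins in repression, Cry1 had the larger difference on its brightest probe. Cry1 had a probe on chromosome 10 from 84647094 to 84647153 with signals of 71.9 in S180 and 67.7 in DMSO, and another with 45.2 and 44.1. Their differences of 0.37 and 0.32 lay 0.050 apart but were below 2 spot SDs of dim genes, and 16% of dim genes had a higher one. Cry2 was bright on 1 probe, at 2784 in S180 and 3320 in DMSO, on chromosome 2 from 92243807 to 92243866. That difference was 0.03, less than the spot SD of bright genes. The other Cry2 probes, which the files assign to different transcript records, had differences of 0.11 and 0.28, the latter 4.28 times the spot SD of middle-signal genes.

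Arntl, which encodes the activator BMAL1, was higher on each of its 3 probes. The brightest, on chromosome 7 from 120456978 to 120457037, gave signals of 449 in S180 and 436 in DMSO, and a difference of 0.33. The dimmer probes gave 73.0 and 62.5, and 62.5 and 54.5, with differences of 0.51 and 0.48. The 0.33 was 5.004 times the spot SD of middle-signal genes, which rests on 6 probes, and 8.36% of those genes had a higher difference. On the spike-in scale the brightest probe's difference was -0.03.

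Nr1d1 and Dbp are classical direct outputs of the CLOCK and BMAL1 dimer. The single Nr1d1 probe had 119 in S180 and 159 in DMSO, with a difference of -0.13, or 0.518 spot SDs. Its coordinates on chromosome 11, from 98630526 to 98631028, span 503 bases although a probe has 60, so that the probe is split in the genome. Dbp, which encodes the D-box activator, had signals of 1684 and 1837 on its brighter probe, on chromosome 7 from 52965265 to 52965324, and of 1150 and 1215 on the other. The scaled differences were 0.16 and 0.20. The former was 2.39 times the spot SD, and 21.4% of genes of like signal had a higher difference.

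**Figure D2:**
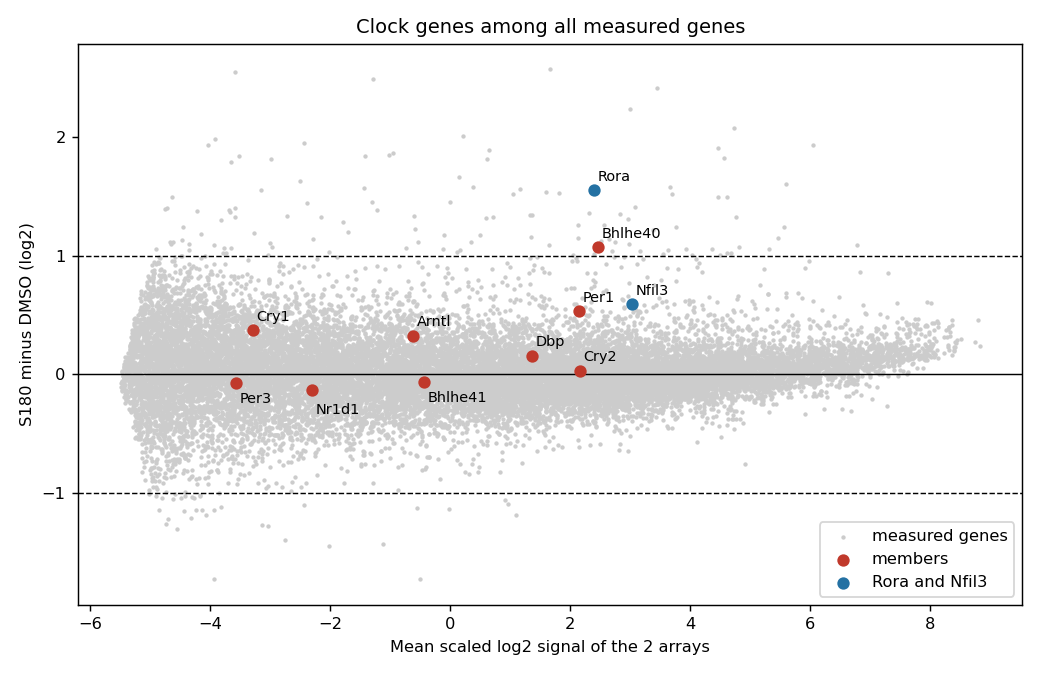
Difference between S180 and DMSO (log2) against the mean scaled log2 signal for the 20777 measured genes, with the 9 measured clock members in red and Rora and Nfil3 in blue; dashed lines mark 2-fold. Bhlhe40 and Rora lie above the upper line, and the other members lie between the dashed lines.

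Beyond 2 spot SDs the count was 4 members higher (Bhlhe40, Per1, Arntl and Dbp) and 0 lower. Over all measured genes 22.9% were higher and 22.2% lower by that measure, 45% in all, so that passing it was common on these arrays. Of the 6 members with several measured probes, 5 had all probes on the same side of 0 after scaling, and Bhlhe41 was the exception. The like share over all genes with several probes was not taken, so this count has no background beside it. Cry1 and Per3 had no probe beyond 2 spot SDs, and the brightest Cry2 probe was within the spot SD. Of the 17 measured member probes 13 were above the median probe and 4 below it.

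The wider clock was taken from 5 lists of 20 other genes, chosen with earlier results of these data known. In these, 16 genes were measured and 1 was at least 2-fold higher, where 0.582% of all measured genes were. At 1.5-fold 2 were higher and 0 lower, against 3.08% and 1.71% of all measured genes. Beyond 2 spot SDs 3 were higher and 4 lower, against 22.9% and 22.2%. The median difference of the 16 genes was -0.01, against 0.00429 for all measured genes, with 7 above the median gene and 9 below. The 2 genes at least 1.5-fold higher were Rora and Nfil3.

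Rora, which encodes the nuclear receptor that activates Arntl, had the largest difference of the 25 measured clock genes. Its brightest probe, on chromosome 9 from 69227536 to 69227595, had signals of 5557 in S180 and 2308 in DMSO, 2.93-fold higher after scaling (log2 1.55). A neighbouring probe of the same transcript gave 250.3 and 105.1, with a difference of 1.53. The third probe, from 68511835 to 68511894 and assigned to a different transcript record, gave 48.1 and 61.1, with a difference of -0.06. That value was 0.24 spot SDs of dim genes, so the third probe showed neither the rise nor a clear fall. The mean over the probes of Rora was 1.01. Of the other nuclear receptors of this loop, Nr1d2, the paralogue of Nr1d1, had a difference of -0.06, and Rorb was not measured. Rora exceeded Nr1d1, its opponent at Arntl, by 1.68 (log2).

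Nfil3, which encodes a repressor that competes with DBP for D-boxes, was 1.505-fold higher. Its overlapping pair of probes, on chromosome 13 near 53062585, gave signals of 6175 and 5620 in S180 and 4987 and 4547 in DMSO. Both differences were 0.59, just past the 0.585 that makes 1.5-fold. Tef and Hlf, the PAR bZIP relatives of Dbp, had differences of -0.07 and -0.13. Nfil3 exceeded Dbp by 0.43 (log2). On the spike-in scale Nfil3 stood at 0.23 and Dbp at -0.20.

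The dimer partner Clock had a difference of 0.03, from signals of 1935 in S180 and 2305 in DMSO. Arntl2, a paralogue of Arntl, was 1.42-fold lower on its brighter probe (182 and 314). A dim probe had 0.08, or 0.31 spot SDs of dim genes, and so did not show that fall. Npas2, which can stand in for Clock, was not measured. Of the 8 kinases, ubiquitin ligases and modulators of PER and CRY, 6 were measured. None was 1.5-fold apart. Csnk1e, which encodes a kinase of PER, had a difference of 0.02, and Timeless, a gene of replication forks also tied to the clock, -0.13. The E-box outputs Wee1 and Usp2 had 0.12 and 0.19.

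**Figure D3:**
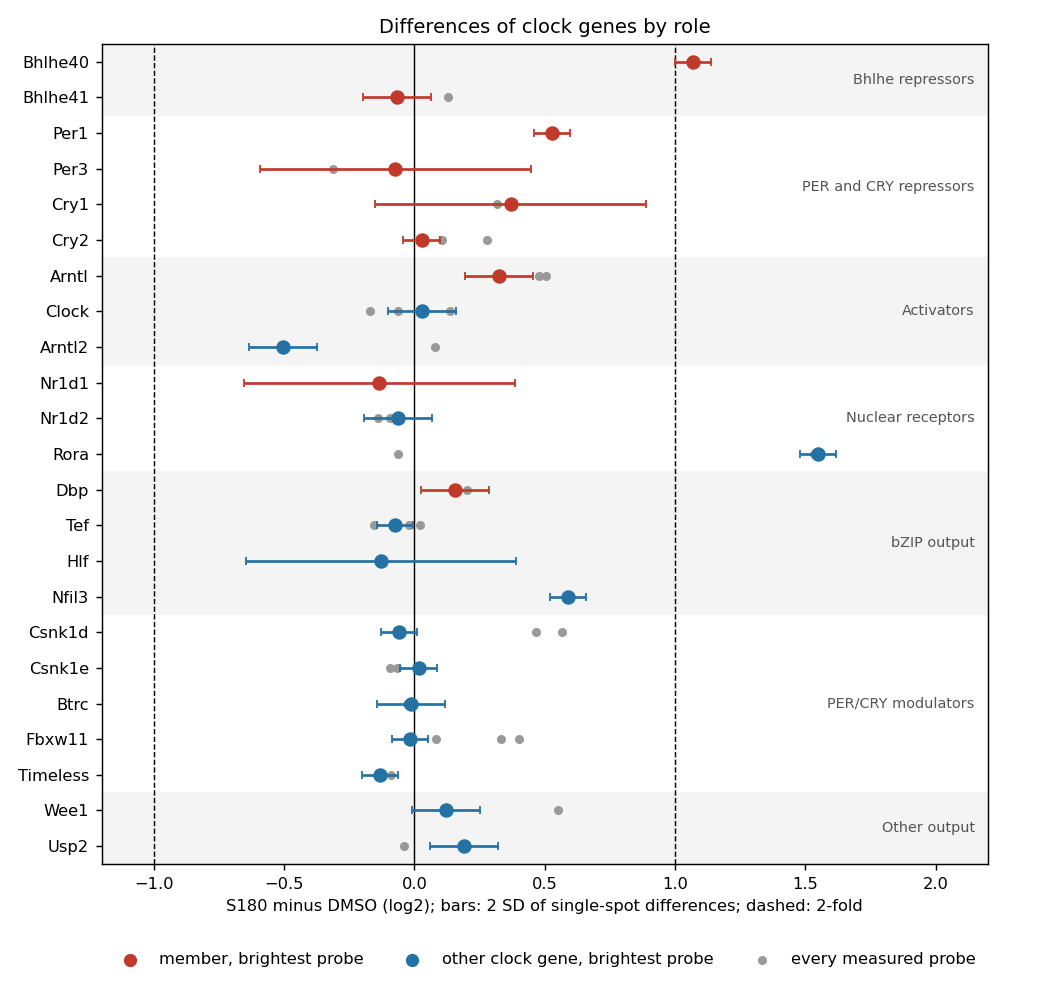
Difference between S180 and DMSO (log2) for 23 of the 25 measured clock genes by role, members in red and other clock genes in blue at their brightest probe, every measured probe in grey, bars of 2 SDs of single-spot differences and dashed lines at 2-fold. Rora (1.55) and Bhlhe40 (1.07) lie past 2-fold, and most others lie near 0.

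Reference lists, also chosen with earlier results of these data known, stand beside the members' values as a scale and not as a test. All 10 HIF targets of the list were measured and 8 were at least 2-fold higher in S180, where 0.582% of all measured genes were. The median difference of the 10 was 1.57. Of these, 8 exceeded Bhlhe40 and 9 exceeded Per1. Adm, the adrenomedullin gene, had the highest at 2.24, and Ndrg1, a stress-induced gene, the lowest at 0.50. Of 11 measured genes of the glucocorticoid and cAMP early response 2 were at least 2-fold higher, beside the same 0.582% of all measured genes. The median of the 11 was 0.27, and 3 exceeded Per1. Those 3 were Egr1 (1.29), Fos (1.03) and Errfi1 (0.59), and the lowest of the list was Nr4a2 (-0.12). Whether any of these pathways bears on the clock genes was not tested.

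Quantile normalization and cyclic loess lowered the differences of Cry1, Per3 and Nr1d1 and raised those of the other measured members. Leaving out the scaling or using the spike-in scale moved all of these values down together. The 75th percentile lay 0.28 (log2) higher on the DMSO array, and the median gene stood at -0.28 without scaling and -0.35 on the spike-in scale. On that scale Cry2, Dbp and Arntl had differences of -0.33, -0.20 and -0.03, reversed in sign, while Bhlhe40 at 0.71, Per1 at 0.17 and Cry1 at 0.01 remained positive. Near 0 the sign also turned for Bhlhe41 with the mean of its probes (0.03), and for Per3 (0.07) and Cry2 (-0.03) with normexp background correction. Relative to the median gene of each setting, Bhlhe40 ranged from 0.99 to 1.101, Per1 from 0.48 to 0.56 and Arntl from 0.25 to 0.43.

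**Figure D4:**
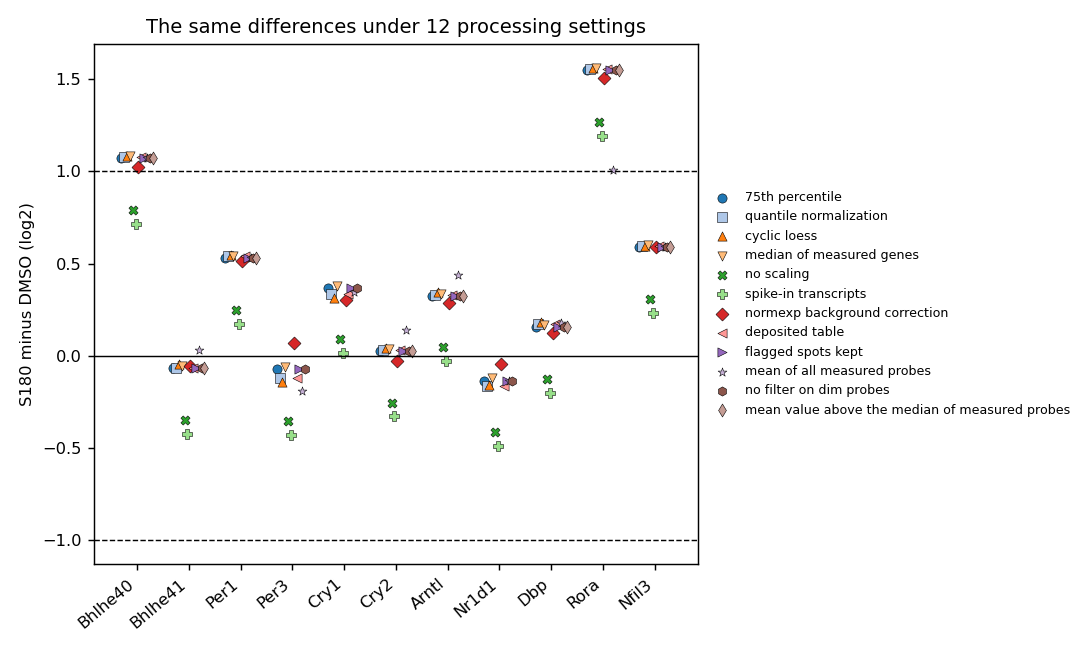
Difference between S180 and DMSO (log2) for the 9 measured members and for Rora and Nfil3 under each of 12 processing settings, a symbol per setting; dashed lines mark 2-fold. The crosses for no scaling and for spike-in scaling lie below the other settings for nearly every gene, and bring Bhlhe40 under 2-fold (0.79 and 0.71).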

How the data were processed

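Total RNA of 2 samples was labelled with Cy3 and read on 1-colour Agilent arrays, 1 per group, per the labels' protocols. The deposited spot intensity is the output of Agilent Feature Extraction 10.7.1.1, per the submitters' processing notes and the file headers: background subtracted, detrended, with surrogates for dim spots and no normalization between arrays. How the deposited table of log2 values was made is not stated in the labels or headers. Its S180 column lay within 0.01 of quantile-normalised log2 signals for 99.8% of 56745 probes and its DMSO column for 99.7%, each with a median of 5.27, so its scale and direction are settled, and it was used as an alternative.

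Control spots and outlier-flagged spots (120 and 195) were left out, log2 spots of a probe averaged, and the 75th percentile subtracted. Gene names are those in the files, and probe positions are on mm9. Alternatives used limma 3.58.1 in R 4.3.3, with normexp offset 50. The pipeline was tested on simulated data. Members and lists were chosen with earlier results of these data known. All members, and genes of the clock lists, were named, except that some list genes are not reported here by name. No p-value was computed. The number of arrays limits the precision.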

Additional observations from a re-analysis of the deposited data

How the results depend on the processing

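Of the 11 alternatives, Bhlhe40 fell short of 2-fold without scaling and on the spike-in scale, where 0 members were 2-fold higher in place of 1, since both lower every difference by a constant. The members' median was then -0.13 and -0.20 in place of 0.16. It was 0.091 with no filter on dim probes, which adds Per2, and 0.24 over the 6 members above the median signal. The counts at 1.5-fold and of members 2-fold lower were the same under all 11. Of 96 alternative values of single members 73 stayed within the spot SD and 23 moved by more, and the direction of Bhlhe40 did not reverse. Part of the 73 could not move. The signal filters leave the value of a measured member as it is, and the probe mean does so for Bhlhe40, Per1 and Nr1d1, each with 1 measured probe. Genes 2-fold higher and lower, 121 and 35, numbered 62 and 173 without scaling, 49 and 261 on the spike-in scale, 74 and 7 with normexp, 1778 and 812 with no filter, and 70 and 6 above the median signal. No paired analysis was possible because each group holds 1 array, and no replicate could be left out. Low signal limits Per2, Per3, Cry1 and Nr1d1.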

Other observations

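Some clock genes had probes that gave different values. Csnk1d, which encodes casein kinase 1 delta, a kinase that marks PER proteins for decay, had a difference of -0.06 (log2) on its brightest probe, with signals of 20676 in S180 and 26163 in DMSO. Probes assigned in the files to another transcript record gave 0.47, with signals of 530 and 466, and 0.57, with signals of 436 and 358. Wee1, a cell cycle kinase gene with E-boxes known to bind the clock dimer, had 0.12 on its bright probe and 0.55 on a dim one with signals of 65.1 and 54.0. Rora, described above, had the widest range, from -0.06 to 1.55. The cause of these disagreements was not tested.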
